A study of Homo sapiens with 16 samples.

Results

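The genes described here are 10 subunits and feedback targets of NF-kB, a family of inducible transcription factors. REL, NFKB1, NFKB2 and RELB encode subunits, and NFKBIA, NFKBIE and TNFAIP3 encode inhibitors. BIRC3 encodes a ubiquitin ligase, TRAF1 encodes a receptor adaptor, and IER3 is an immediate early gene. These 10 were a named list, chosen with earlier results of these data known. They were matched by gene symbol to 6 deposited tables that together listed 19315 genes. All 10 were listed in the 3 U2OS tables and in the HCT116 siMYBL1 table. TRAF1 was not listed in the other 2 HCT116 tables, which left 58 of 60 possible values.

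The values come from paired-end sequencing of total RNA from 16 libraries of established human lines: U2OS, from an osteosarcoma, and HCT116, from a colorectal carcinoma. In each line, small interfering RNA (siRNA) was directed at MYBL1, at MYBL2 or, in the double knockdown, at both, and the cells given siCtrl, a non-targeting siRNA, were the controls. RNA was collected at 48 h in every group, and the 8 groups held 2 libraries apiece, biological replicates according to the design text. MYBL1 and MYBL2 (A-MYB and B-MYB) are MYB family transcription factors, and the design asks what each does in cells that divide by mitosis. The knockdowns left some target RNA. In the authors' deposited table MYBL2 fell to 0.0453 and 0.0434 of its siCtrl level after siMYBL2 and both in U2OS. In HCT116 it fell to 0.0905 and 0.0992. MYBL1 fell less far, to 0.507 and 0.435 of its own level after siMYBL1 and both in U2OS, and to 0.314 and 0.278 in HCT116. Neither was called where the other alone was targeted. Each group is 1 line treated with siRNA, and the number of siRNA sequences per target is not given in the sources used here.

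NF-kB acts as dimers of its subunits, which inhibitor proteins (the IkB proteins, among them the products of NFKBIA and NFKBIE) hold in the cytoplasm. Receptors such as those for tumour necrosis factor, acting through adaptors, activate the IKK kinase complex, which marks the IkB proteins for destruction and frees the dimers to bind kB sites in DNA. A second, non-canonical route runs through processing of the NFKB2 product and acts with RELB. Many genes that NF-kB switches on restrain it again, so that RNA of NFKBIA, NFKBIE, TNFAIP3, BIRC3 and TRAF1 is commonly read as a record of NF-kB activity. None of the values here measures NF-kB protein or its binding.

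Promoters of the members are shown because kB-type sequences are what these genes are known to share. RefSeq promoter windows of GRCh38.p14, running from 250 bases before a transcript start to 50 after it, matched 7 of the 10 members with 12 windows in all, some genes having several starts. RELB, NFKBIE and IER3 had no window in the source used here, so their promoters were not searched. The motif searched was GGGNNNTTCC, a common form of the kB site, on both strands. It was present in 7 of the 12 windows and in 6 of the 7 genes, against 6.52% of all 35116 windows and 7.83% of the 27305 genes that have one. Matches are in capitals below, written 5′ to 3′ on the strand of the gene, and a capital run that starts with GGAA is a match on the opposite strand.

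TRAF1, chr9:120929122-120929421, reverse strand: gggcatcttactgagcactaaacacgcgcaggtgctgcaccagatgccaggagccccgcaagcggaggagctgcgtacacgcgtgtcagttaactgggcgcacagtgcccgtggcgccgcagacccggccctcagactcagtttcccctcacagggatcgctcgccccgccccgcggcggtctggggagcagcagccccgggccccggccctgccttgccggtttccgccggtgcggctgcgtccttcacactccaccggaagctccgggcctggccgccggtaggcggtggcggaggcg

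BIRC3, chr11:102317234-102317533, forward strand: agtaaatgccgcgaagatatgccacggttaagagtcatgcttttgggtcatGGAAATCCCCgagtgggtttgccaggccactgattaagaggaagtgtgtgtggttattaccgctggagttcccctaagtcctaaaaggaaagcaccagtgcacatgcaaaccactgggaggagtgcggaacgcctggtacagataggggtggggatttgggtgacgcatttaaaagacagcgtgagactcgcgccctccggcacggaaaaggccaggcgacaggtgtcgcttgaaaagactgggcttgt

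TNFAIP3, chr6:137867009-137867308, forward strand: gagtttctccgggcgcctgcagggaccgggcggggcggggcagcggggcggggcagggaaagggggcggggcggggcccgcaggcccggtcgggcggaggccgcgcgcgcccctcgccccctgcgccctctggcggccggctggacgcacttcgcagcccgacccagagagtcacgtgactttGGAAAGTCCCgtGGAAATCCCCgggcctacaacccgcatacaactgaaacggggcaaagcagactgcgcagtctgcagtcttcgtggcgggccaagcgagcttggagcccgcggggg

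NFKBIA, chr14:35404700-35404999, reverse strand: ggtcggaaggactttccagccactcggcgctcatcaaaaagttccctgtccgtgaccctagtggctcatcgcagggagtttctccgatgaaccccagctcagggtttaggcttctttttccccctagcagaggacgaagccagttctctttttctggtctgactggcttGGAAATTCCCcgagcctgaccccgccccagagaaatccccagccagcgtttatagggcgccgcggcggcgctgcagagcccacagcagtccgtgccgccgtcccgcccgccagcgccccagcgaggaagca

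TRAF1 and BIRC3 are shown because they had the largest changes in the U2OS double knockdown, and TNFAIP3 and NFKBIA as inhibitors that were called and not called there. TNFAIP3 had 2 neighbouring matches, beginning 67 and 55 bases before the start. BIRC3 had 1 match, 199 bases before the start, and NFKBIA had 1, 81 bases before it. The TRAF1 window held no match, nor did the other 2 TRAF1 windows, so the gene with the largest change was the single member of the 7 without these letters in its windows. Among the subunits, NFKB1 carried GGGAATTTCC beginning 49 bases before 1 of its 2 starts, NFKB2 carried GGGACTTTCC 21 bases before 1 start and had 2 more matches before another, and REL had 2 overlapping matches at 47 and 46 bases. REL and NFKBIA thus hold a match and, as described below, were not called in any comparison. A match is a string of letters and not a measured binding site.

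Each deposited table sets 1 knockdown against the siCtrl libraries of that line and holds a base mean (normalized counts averaged over 4 libraries), a log2 fold change, its standard error (SE) and a p-value adjusted over the genes of the table. A gene was called where the adjusted p was below 0.05. Values of single libraries were not available, so group levels were worked out from base mean and fold change. The 3 tables of a line share its siCtrl libraries, and the siCtrl levels implied by them differed by at most 1.13 times for a member in U2OS and 1.16 times in HCT116. The knockdowns of a line are therefore not independent of each other. Base means summed to between 17441617 and 19826741 per table; the depth of single libraries is unknown. Of 10 blood cell markers, at most 3 were listed in a table (CD68, ITGAM and LYZ), with base means of 7.08 to 74.8; PTPRC, CD3D, CD3E, CD14 and NKG7 were among those listed in none. Of 10 markers of epithelium, 9 were listed in each HCT116 table, without VIL1, with a median base mean of 3405 to 4191. In U2OS 5 to 8 were listed, with a median of 141 to 877. KRT8 had 33055 to 36728 in U2OS and 31627 to 35751 in HCT116, and KRT18 14210 to 16436 and 13134 to 14827. Of 10 mesenchymal and osteoblast markers, 8 were listed in each U2OS table, without COL1A2 and TWIST1, with a median base mean of 2518 to 3057. In HCT116 6 to 8 were listed, with a median of 53.3 to 139. Of each line's own markers, 4 of 8 rose and 1 fell in the U2OS double knockdown, beside 6.55% and 6.06% of all genes. In that of HCT116, 2 of 9 rose, beside 2.82% of all genes. Of 8 epithelial markers listed in the U2OS double knockdown, 1 was called lower, KRT18 at -0.72 (SE 0.20). The part of the markers in the results below was not tested. In such bulk samples, more cells of a kind and more RNA per cell cannot be told apart.

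In U2OS, 8 of the 10 members rose in the double knockdown: TRAF1, BIRC3, NFKBIE, TNFAIP3, NFKB1, RELB, IER3 and NFKB2, with fold changes of 1.43 to 6.25. NFKBIA and REL were the 2 not called. After siMYBL1 alone, TRAF1, NFKBIE, BIRC3 and NFKB2 rose, and after siMYBL2 alone, BIRC3, TNFAIP3 and NFKBIE. In HCT116 the single call was BIRC3 in the double knockdown. No member was called lower anywhere.

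Those counts are given beside the share of all genes called by the same rule. The members were chosen with earlier results of these data known, so the shares describe the counts and are no test of enrichment. Here and below the shares are at the adjusted threshold, and none was worked out for an unadjusted p under 0.05. In U2OS, 8 of 10 members rose in the double knockdown, where 6.55% of 16803 genes were called higher and 6.06% lower. Of the 10, 4 rose after siMYBL1, where 3.44% of genes were higher and 2.27% lower, and 3 rose after siMYBL2, where 1.69% were higher and 3.51% lower. In HCT116, 1 of 9 listed members rose in the double knockdown, against 2.82% of genes higher and 4.12% lower. DESeq2's Wald test called 0 of 10 members after siMYBL1 in HCT116 (0.115% of genes higher and 0.144% lower) and 0 of 9 after siMYBL2 (0.291% higher and 0.837% lower). Of the members in each of these 2 tables, 1 had an unadjusted p under 0.05: BIRC3, higher, and NFKB2, lower, which was the 1 downward value of the 58 below that level. The median log2 fold change of the members was 0.50 after siMYBL1, 0.36 after siMYBL2 and 0.81 in the double knockdown of U2OS, where the median of all genes was 0.02, 0.01 and 0.01. In HCT116 the members' medians were 0.21, -0.01 and 0.08, and those of all genes 0.00, -0.02 and -0.02.

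**Figure D1:**
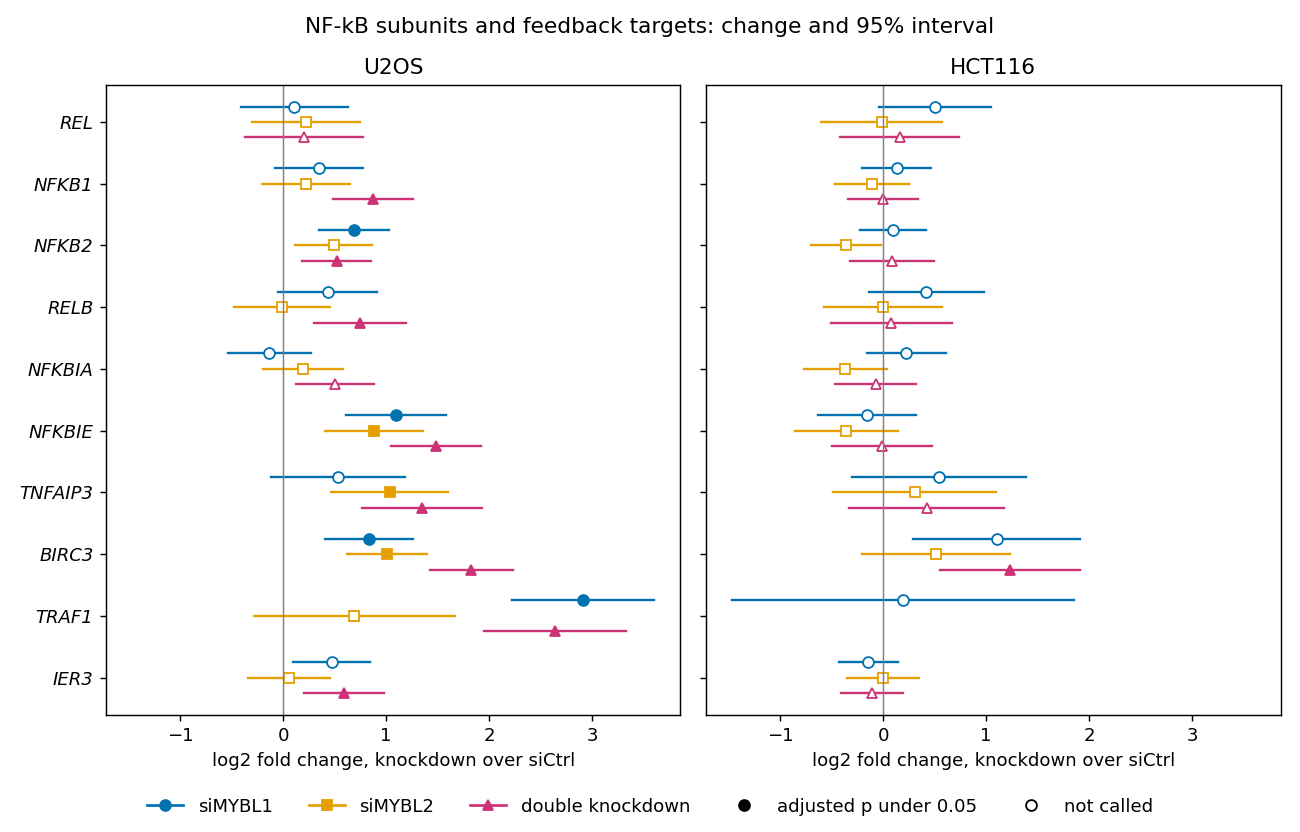
Log2 fold change of each member, knockdown over siCtrl, on the horizontal axis, with 95% intervals and filled marks where the adjusted p was below 0.05; U2OS left, HCT116 right. In U2OS 8 of 10 double-knockdown marks are filled and all lie right of 0, whereas in HCT116 only BIRC3 in the double knockdown is filled; TRAF1 was listed for siMYBL1 alone in HCT116.

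Of the 4 subunit genes, REL, which encodes c-Rel, was the 1 called in no comparison. REL (ENSG00000162924, chromosome 2, 60881491 to 60931612 of hg38, forward strand) had implied levels of 372, 387 and 377 normalized counts in U2OS after siMYBL1, siMYBL2 and both, against 327 to 345 in siCtrl. The 3 knockdown levels lie close together and slightly above the controls. The authors' deposited table gave log2 fold changes of 0.11 (SE 0.26), 0.22 (SE 0.27) and 0.20 (SE 0.29), none called, and the 95% interval for the double knockdown, -0.37 to 0.78, still allows a rise of 1.72-fold. In HCT116 the REL level was 286, 223 and 261, against 202 to 234 in siCtrl, and it was not called there either. The REL gene overlaps RNU4-51P and AC010733.2 in GENCODE release 29, neither of which was listed in any table under that name.

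NFKB1 encodes p105, the precursor of the p50 subunit. NFKB1 (ENSG00000109320, chromosome 4, 102501330 to 102617302, forward strand) stood at 780 normalized counts after siMYBL1, 733 after siMYBL2 and 1099 in the double knockdown of U2OS, against 601 to 628 in siCtrl. The double knockdown was the highest of the 4 groups. In the authors' deposited table its log2 fold change there was 0.87 (SE 0.20, adjusted p = 0.000274), and the single knockdowns, at 0.35 (SE 0.22) and 0.22 (SE 0.22), were not called. HCT116 showed 1002, 850 and 989 in the same order against 915 to 991 in siCtrl, with a fold change of 0.998 (95% interval 0.787 to 1.26) in the double knockdown.

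NFKB2 encodes p100, whose processing yields the p52 subunit of the non-canonical route. NFKB2 (ENSG00000077150, chromosome 10, 102394110 to 102402524, forward strand) had levels of 3280, 3055 and 3311 normalized counts in the U2OS knockdowns, against 2036 to 2308 in siCtrl. The 3 knockdowns were thus at similar levels, and the siCtrl value itself varied more between tables than for any other member in this line. The authors' deposited table called siMYBL1, with 0.69 (SE 0.17, adjusted p = 0.00354), and the double knockdown, with 0.52 (SE 0.17, adjusted p = 0.0236). It did not call siMYBL2, with 0.49 (SE 0.19, adjusted p = 0.125). In HCT116, NFKB2 stood at 1882, 1426 and 1995, against 1764 to 1880 in siCtrl. Its value after siMYBL2 there was -0.36 (SE 0.17, adjusted p = 0.556), as listed in the authors' deposited table, with an unadjusted p of 0.0390.

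RELB, the partner of p52, was called in U2OS in the double knockdown alone. RELB (ENSG00000104856, chromosome 19, 45001461 to 45038192, forward strand) stood at 673, 514 and 825 normalized counts in the U2OS knockdowns, against 492 to 517 in siCtrl. The siMYBL2 level lay within the range of the controls. In the authors' deposited table RELB was at 0.43 (SE 0.25), -0.01 (SE 0.24) and 0.75 (SE 0.23, adjusted p = 0.0136) for siMYBL1, siMYBL2 and both. The HCT116 levels were 301, 215 and 258, against 215 to 245 in siCtrl, and none was called.

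Of the inhibitors, NFKBIA, which encodes IkB-alpha and is the best known immediate feedback gene of the pathway, was called in none of the 6 comparisons. NFKBIA (ENSG00000100906, chromosome 14, 35401079 to 35404749, reverse strand) had 623, 818 and 985 normalized counts after siMYBL1, siMYBL2 and both in U2OS, against 682 to 715 in siCtrl, so the siMYBL1 level lay below the controls and the double-knockdown level above them. The authors' deposited table put the double knockdown at 0.51 (SE 0.19, adjusted p = 0.0659), just short of the threshold, and the single knockdowns at -0.13 (SE 0.21) and 0.19 (SE 0.20). In HCT116 the levels were 686, 472 and 614, against 587 to 645 in siCtrl; the lowest, after siMYBL2, was at -0.37 (SE 0.20, adjusted p = 0.692), as listed in the authors' deposited table.

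NFKBIE, which encodes IkB-epsilon, rose in every U2OS knockdown. NFKBIE (ENSG00000146232, chromosome 6, 44258166 to 44265788, reverse strand) stood at 518, 471 and 711 normalized counts, against 242 to 255 in siCtrl. Each knockdown level was well above the range of the controls. In the authors' deposited table the log2 fold changes were 1.10 (SE 0.25, adjusted p = 0.000751), 0.88 (SE 0.24, adjusted p = 0.00948) and 1.48 (SE 0.22, adjusted p = 2.25e-09). The last corresponds to 2.79-fold (95% interval 2.07 to 3.78). In HCT116 the NFKBIE level was 266, 238 and 310, against 297 to 312 in siCtrl, and the double knockdown was at 0.993-fold (95% interval 0.709 to 1.39).

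TNFAIP3 encodes A20, an enzyme that edits ubiquitin chains and shuts off signalling to IKK. TNFAIP3 (ENSG00000118503, chromosome 6, 137867214 to 137883314, forward strand) had 209 normalized counts after siMYBL1, 310 after siMYBL2 and 381 in the double knockdown of U2OS, against 144 to 151 in siCtrl. The authors' deposited table called siMYBL2 (1.03, SE 0.29, adjusted p = 0.0109) and the double knockdown (1.34, SE 0.30, adjusted p = 0.000163), but not siMYBL1 (0.53, SE 0.33, adjusted p = 0.441). In HCT116 TNFAIP3 stood at 120, 99.5 and 120, against 80.5 to 89.2 in siCtrl, with all 3 knockdowns above the controls and none called. Its base mean of 90.0 to 104 there is low, and the upper bounds of the 95% intervals there were 2.61-, 2.14- and 2.26-fold. A gene of the opposite strand, AL357060.1, overlaps TNFAIP3 in GENCODE release 29 and was not listed under that name.

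BIRC3 was called in 4 of 6 comparisons, more than any other member. It encodes cIAP2, a ubiquitin ligase that joins TRAF proteins at tumour necrosis factor receptors. BIRC3 (ENSG00000023445, chromosome 11, 102317450 to 102339403, forward strand) had 906, 989 and 1716 normalized counts in the U2OS knockdowns, against 483 to 508 in siCtrl. The double knockdown was higher than either single one. In the authors' deposited table BIRC3 stood at 0.84 (SE 0.22, adjusted p = 0.00542), 1.01 (SE 0.20, adjusted p = 4.99e-05) and, after both, 1.83 (SE 0.21, adjusted p = 1.28e-16). The double knockdown amounted to 3.55-fold (95% interval 2.68 to 4.69).

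BIRC3 was also the member with the largest changes in HCT116, where its levels were 275, 181 and 323 normalized counts, against 127 to 137 in siCtrl. All 3 knockdown levels exceeded the controls. The authors' deposited table called the double knockdown at 1.23 (SE 0.35, adjusted p = 0.00937). After siMYBL1 the change was of similar size, 1.10 (SE 0.41) in the authors' deposited table, but with an unadjusted p of 0.00745 and an adjusted p of 0.587 it was not called. Among genes whose base mean reached 50, ranked by log2 fold change, BIRC3 lay above 99.5% of genes in the U2OS double knockdown and above 99.4% in that of HCT116.

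TRAF1 had the largest fold changes of the list in the U2OS groups given siMYBL1, and its change differed between the single knockdowns of U2OS. It encodes an adaptor that binds TRAF2 and cIAP proteins and is known mainly from lymphoid cells. TRAF1 (ENSG00000056558, chromosome 9, 120902393 to 120929173, reverse strand) had 382 normalized counts after siMYBL1, 83.3 after siMYBL2 and 325 in the double knockdown, against 50.8 to 52.0 in siCtrl. The 2 groups given siMYBL1 stood far above the other 2. The authors' deposited table put TRAF1 after siMYBL1 at 2.91 (SE 0.35, adjusted p = 3.68e-13). For siMYBL2 the authors' deposited table had 0.69 (SE 0.50, adjusted p = 0.641), and for the double knockdown 2.64 (SE 0.35, adjusted p = 5.86e-12). These are 7.53-fold (95% interval 4.66 to 12.2), 1.62-fold (0.824 to 3.17) and 6.25-fold (3.88 to 10.1). TRAF1 lay above 99.9% of genes by log2 fold change in each of the 2 groups given siMYBL1. In HCT116 it was listed for siMYBL1 alone, with a base mean of 19.2 and a log2 fold change of 0.19 (SE 0.85) in the authors' deposited table; the lowest base means in the other HCT116 tables were 28.4 and 40.4. The upper bound of its 95% interval after siMYBL1 in HCT116 was 3.61-fold, so a rise of up to 3.61-fold was not excluded there. The U2OS estimate of 7.53-fold lay above that bound, though the difference between the lines was not called, as given below. The other 2 HCT116 comparisons give no bound.

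IER3 encodes a short-lived stress and growth factor response protein and is a target of NF-kB among other factors. IER3 (ENSG00000137331, chromosome 6, 30743199 to 30744548, reverse strand) had 5449, 4294 and 6007 normalized counts in the U2OS knockdowns, against 3928 to 4123 in siCtrl. The siMYBL2 group was nearest to the controls. It was called in the double knockdown, at 0.59 (SE 0.20, adjusted p = 0.0287), as listed in the authors' deposited table, and not after siMYBL1 (0.47, SE 0.19, adjusted p = 0.138) or siMYBL2 (0.06, SE 0.20). In HCT116 the levels were 7982, 8970 and 8825, against 8813 to 9534 in siCtrl, and the double knockdown was at 0.926-fold (95% interval 0.752 to 1.14). IER3 is overlapped by the antisense gene IER3-AS1, and whether counting used strand is not given in the sources used here. IER3-AS1 was listed in 2 U2OS tables with base means of 25.9 and 26.5, where IER3 had 4208 and 4998.

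**Figure D2:**
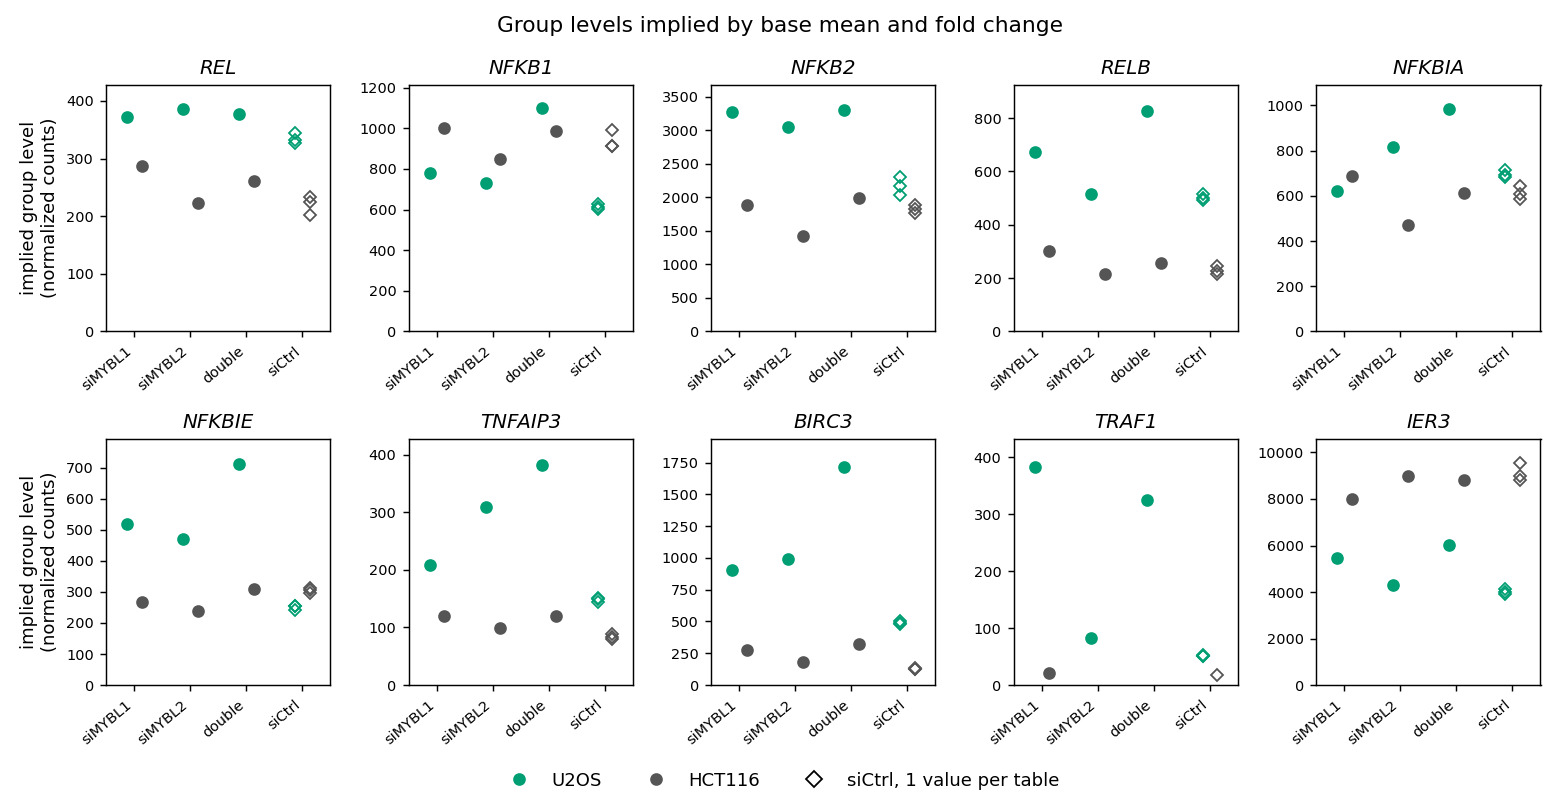
Implied level of each member (vertical axis, normalized counts, starting at 0) in siMYBL1, siMYBL2, double knockdown and siCtrl, U2OS in green and HCT116 in grey; open diamonds are the siCtrl level implied by each table, and no library values or errors are shown. BIRC3, NFKBIE and TNFAIP3 are highest in the U2OS double knockdown, and TRAF1 is high in the 2 U2OS groups given siMYBL1. The lines were normalized in separate tables, so levels are to be compared within a line.

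Whether targeting both factors gave more than targeting 1 was tested by the difference of log2 fold changes, with Benjamini-Hochberg adjustment over all genes in both tables. The summed error is too large here, since the shared controls cancel, so the test is conservative. Against siMYBL1 alone in U2OS, 0 of 10 members were called and 2 had an unadjusted p under 0.05, where 1.54% of all genes were called in either direction. BIRC3 came nearest, with 0.99 (SE 0.30, 95% interval 0.40 to 1.58, adjusted p = 0.0565). Once the variance was reduced for the shared controls, BIRC3 (adjusted p = 0.000172) and NFKBIA (0.64, SE 0.28 before that reduction, adjusted p = 0.0306 after it) were called. For TRAF1 the difference was -0.27 (95% interval -1.25 to 0.71).

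Against siMYBL2 alone in U2OS, again 0 of 10 members were called and 4 had an unadjusted p under 0.05, with 1.05% of all genes called. TRAF1 stood at 1.95 (SE 0.61, adjusted p = 0.0993), BIRC3 at 0.82 (SE 0.29, adjusted p = 0.241), RELB at 0.75 (SE 0.33, adjusted p = 0.616) and NFKB1 at 0.65 (SE 0.29, adjusted p = 0.680). With the reduced variance all 4 were called, at adjusted p = 0.000428, 0.00310, 0.0343 and 0.0451. The difference was positive for 9 of 10 members, with a median of 0.57, where the median over all genes was -8.47e-05. In HCT116, 0 of 9 members were called against siMYBL1 (1.28% of all genes called, 0 members with an unadjusted p under 0.05) or against siMYBL2 (0.645% of genes, 0 members).

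The single knockdowns were compared with each other in the same way. In U2OS the TRAF1 change was 2.22 larger on the log2 scale after siMYBL1 than after siMYBL2 (SE 0.61, 95% interval 1.03 to 3.41, adjusted p = 0.0148), and TRAF1 was the 1 member of 10 called, where 2.92% of genes were. No such difference was shown for BIRC3 (-0.17, 95% interval -0.75 to 0.40), NFKBIE (0.22, 95% interval -0.46 to 0.89) or TNFAIP3 (-0.50, 95% interval -1.36 to 0.36). In HCT116, 0 of 9 were called and 1, NFKBIA at 0.59 (SE 0.28, adjusted p = 0.863), had an unadjusted p under 0.05, with 0.493% of genes called.

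The double knockdown was also set against the sum of the single log2 fold changes. In U2OS, 0 of 10 members were called as departing from the sum, where 0.211% of genes were. Of the 10, 1 had an unadjusted p under 0.05: NFKB2, whose double-knockdown value lay 0.66 below the sum (SE 0.31, 95% interval of the departure -1.27 to -0.05, adjusted p = 1). For BIRC3 the departure was -0.02 (95% interval -0.72 to 0.69). It was largest for TRAF1, at -0.96 (95% interval -2.34 to 0.41), and for NFKBIE it was -0.50 (95% interval -1.31 to 0.31). The departure was positive for 4 of 10 members. These intervals are wide, so a departure that was not called is not shown to be absent. In HCT116, 0 of 9 members were called, none with an unadjusted p under 0.05, where 0.14% of genes were called.

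**Figure D3:**
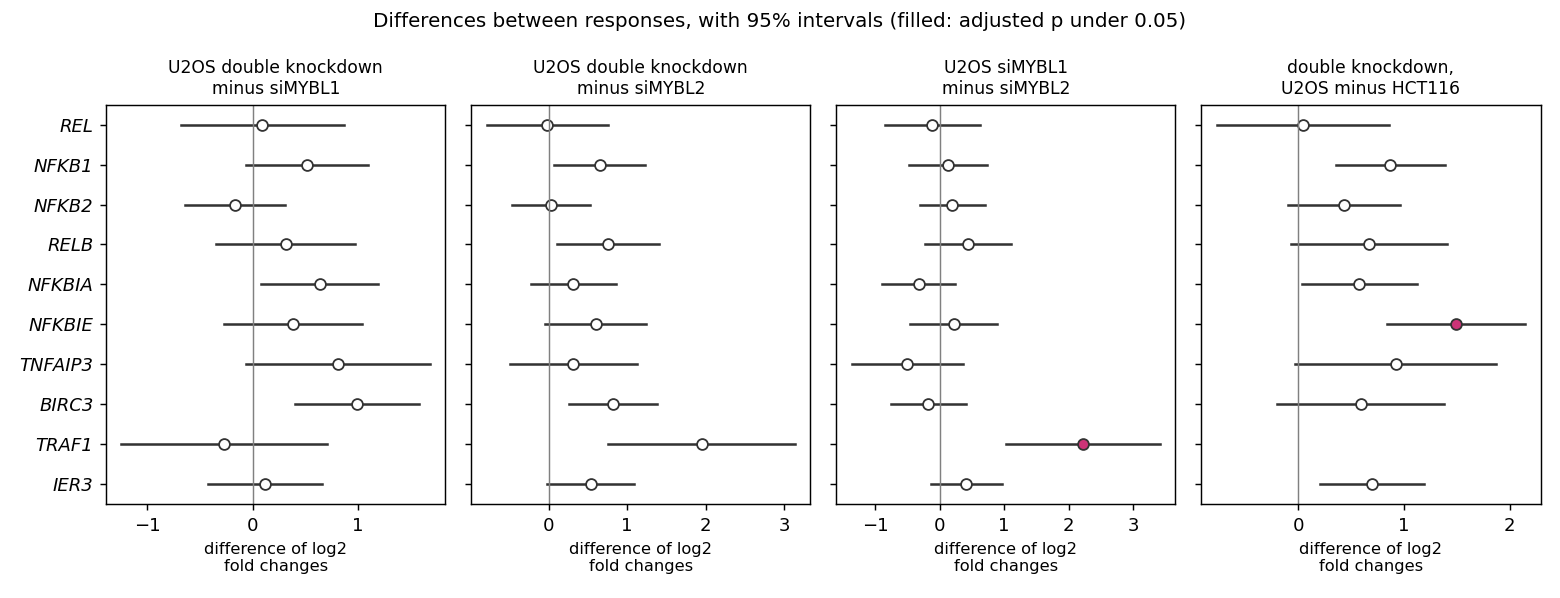
Difference of log2 fold changes (horizontal axis) for each member with its 95% interval, from left to right for the U2OS double knockdown minus siMYBL1, the U2OS double knockdown minus siMYBL2, U2OS siMYBL1 minus siMYBL2, and the double-knockdown response of U2OS minus that of HCT116; filled marks have an adjusted p below 0.05. TRAF1 is filled in the third panel at 2.22 and NFKBIE in the last at 1.49; TRAF1 has no value there.

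The response of U2OS was tested against that of HCT116, 2 sets of tables that share no library. The estimated share of target RNA left also differed between the lines, as given above, and its part in these differences was not tested. In the double knockdown, NFKBIE changed by 1.49 more on the log2 scale in U2OS than in HCT116 (SE 0.33, 95% interval 0.84 to 2.15, adjusted p = 0.00256). It was the 1 member of 9 called, where 1.27% of genes were. All 9 differences were positive, with a median of 0.67 against 0.02 over all genes, and 4 had an unadjusted p under 0.05. Next came NFKB1 at 0.87 (SE 0.26, adjusted p = 0.0668) and IER3 at 0.70 (SE 0.25, adjusted p = 0.183). For BIRC3, called in both lines, the difference was 0.59 (95% interval -0.20 to 1.38).

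After siMYBL1, 0 of 10 members were called as different between the lines, where 0.0594% of genes were. Of the 10, 4 had an unadjusted p under 0.05, a level at which no share of all genes was worked out. They were TRAF1 at 2.72 (SE 0.92, adjusted p = 0.357), NFKBIE at 1.26 (SE 0.35, adjusted p = 0.147), IER3 at 0.61 (SE 0.24, adjusted p = 0.607) and NFKB2 at 0.59 (SE 0.24, adjusted p = 0.614). After siMYBL2, 0 of 9 differed (0.215% of genes did) and 3 had an unadjusted p under 0.05, NFKBIE at 1.24 (SE 0.35, adjusted p = 0.119), NFKB2 at 0.85 (SE 0.26, adjusted p = 0.187) and NFKBIA at 0.56 (SE 0.28, adjusted p = 1). A difference between the lines was therefore called for NFKBIE in the double knockdown alone. For the other members no difference was called, and TRAF1 could be tested after siMYBL1 only.

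Other genes of the pathway were taken from 3 lists, which were also chosen with earlier results of these data known. Genes of the IKK complex, adaptors and other regulators, which carry the signal, were all listed in every table, 35 of 35, and 0 were called higher in any of them by DESeq2's Wald test, with between 0 and 4 higher at an unadjusted p under 0.05. Of all genes, 3.44%, 1.69% and 6.55% were called higher after siMYBL1, siMYBL2 and both in U2OS. In HCT116 the shares were 0.115%, 0.291% and 2.82%. RELA, the main activating subunit, was at 0.12 (SE 0.21), 0.10 (SE 0.19) and 0.16 (SE 0.17) after siMYBL1, siMYBL2 and both in U2OS in the authors' deposited table. For the double knockdown of U2OS the kinase genes IKBKB and CHUK stood at 0.10 (SE 0.20) and -0.29 (SE 0.21), and the scaffold gene IKBKG at 0.27 (SE 0.20), in the authors' deposited table. TAB2, which links upstream kinases to ubiquitin chains, fell after siMYBL2 in U2OS, where -1.05 was its value in the authors' deposited table (SE 0.18, adjusted p = 2.22e-06). The double knockdown of U2OS had -0.82 for TAB2 (SE 0.18, adjusted p = 0.000148), as listed in the authors' deposited table. TAB3, its relative, fell after siMYBL2 in U2OS, with -0.87 in the authors' deposited table (SE 0.22, adjusted p = 0.00415). These were the 3 calls in that list, all lower. They were 2 of 35 genes after siMYBL2 in U2OS and 1 of 35 in the double knockdown, beside 3.51% and 6.06% of all genes. Its median was 0.12 in the U2OS double knockdown, against 0.01 for all genes.

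Among receptors, ligands and proximal signalling genes, 8 of 21 listed genes of 30 rose and 1 fell in the U2OS double knockdown, where 6.55% of all genes rose and 6.06% fell. The median was 0.51, against 0.01 for all genes. TNFRSF9 (4-1BB), a receptor that signals through TRAF1 and TRAF2, stood at 990 normalized counts there, against 326 in siCtrl, a change of 1.60 (SE 0.25, adjusted p = 1.30e-08), as listed in the authors' deposited table. The ligand gene TNFSF15 rose by 2.08 (SE 0.39, adjusted p = 3.50e-06), the lymphotoxin gene LTB by 1.61 (SE 0.38, adjusted p = 0.000588) and the receptor gene CD40 by 0.85 (SE 0.19, adjusted p = 0.000171), as listed in the authors' deposited table. The 8 include IL1A, at 2.97 (SE 0.69) with a base mean of 44.1, which was listed in the U2OS double knockdown alone. A gene low in siCtrl can be listed because its knockdown level is high, so the count and median are of listed genes. After siMYBL1 in U2OS, where 3.44% of all genes rose, TNFRSF9 was also the 1 gene of 18 listed to do so, at 0.81 (SE 0.23, adjusted p = 0.0152), as listed in the authors' deposited table. After siMYBL2 in U2OS, 2 of 20 rose and 1 fell, beside 1.69% and 3.51% of all genes: TNFRSF9 was at 0.94 (SE 0.24, adjusted p = 0.00329) and TNFSF15 at 1.28 (SE 0.40, adjusted p = 0.0315), while MYD88, the adaptor of Toll-like and interleukin-1 receptors, stood at -1.23 (SE 0.28, adjusted p = 0.00103), all in the authors' deposited table. The 1 gene that fell in the U2OS double knockdown was again MYD88, at -0.77 (SE 0.28, adjusted p = 0.0439), as listed in the authors' deposited table. HCT116 had calls in the double knockdown alone, 1 of 17 listed genes higher and 1 lower, beside 2.82% and 4.12% of all genes: IRAK2, a kinase of the same receptors, at 1.58 (SE 0.36, adjusted p = 0.000693), and the receptor gene TNFRSF11A at -1.50 (SE 0.46, adjusted p = 0.0224), as listed in the authors' deposited table. IRAK2 was also among the 8 called higher in the U2OS double knockdown, at 1.59 (SE 0.49) with a base mean of 70.2.

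Of the other known NF-kB target genes, 15 of 34 listed genes of 44 rose and 1 fell in the U2OS double knockdown, beside 6.55% and 6.06% of all genes. The median was 0.88, against 0.01 for all genes. CXCL8, the neutrophil chemokine interleukin-8, stood at 204 normalized counts in that group, against 14.7 in siCtrl, a change of 3.80 (SE 0.52, adjusted p = 3.88e-11), as listed in the authors' deposited table. SDC4, a membrane proteoglycan, rose by 1.60 (SE 0.17, adjusted p = 1.75e-18), BCL2L1, which encodes the survival protein BCL-XL, by 1.36 (SE 0.17, adjusted p = 2.49e-14) and MMP9, a secreted protease, by 1.61 (SE 0.22, adjusted p = 9.96e-12), as listed in the authors' deposited table. The 1 that fell was SAA1, an acute-phase gene with a base mean of 48.7, at -1.60 (SE 0.58, adjusted p = 0.0468), as listed in the authors' deposited table. After siMYBL1 in U2OS 6 of 29 rose, beside 3.44% of all genes, among them SDC4 at 1.12 (SE 0.18) and the cytokine gene LIF at 0.79 (SE 0.20) in the authors' deposited table. After siMYBL2 in U2OS, where 1.69% of all genes rose and 3.51% fell, 2 of 27 rose, IL32 at 0.62 (SE 0.17) and CSF1 at 1.04 (SE 0.28), and PLAU stood at -0.91 (SE 0.23) and was called lower in the authors' deposited table. In HCT116, 2 of 20 rose in the double knockdown, beside 2.82% of all genes, SDC4 at 0.85 (SE 0.19, adjusted p = 0.000320) and BCL2L1 at 0.52 (SE 0.15, adjusted p = 0.00953), as listed in the authors' deposited table. DESeq2's Wald test called 0 of 30 after siMYBL1 and 0 of 20 after siMYBL2 in that line, with 2 and 1 at an unadjusted p under 0.05. Of all genes, 0.115% rose in the first of these tables and 0.291% in the second. A gene enters a table by its base mean over knockdown and control, so a gene that is low in siCtrl can be listed because its knockdown level is high. These counts and medians are of listed genes. CSF2 and BCL2A1, among the 15 that rose in the U2OS double knockdown, were listed there alone, with base means of 36.2 and 18.1. CCL20, also among the 15, was at 3.46 (SE 0.64) with a base mean of 52.4. After siMYBL1 in U2OS, CCL20 at 3.12 (SE 0.68) and CXCL8 at 2.12 (SE 0.68) were among the 6 that rose. Their base means were 40.5 and 36.7 there, where the lowest of any listed gene was 30.2.

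**Figure D4:**
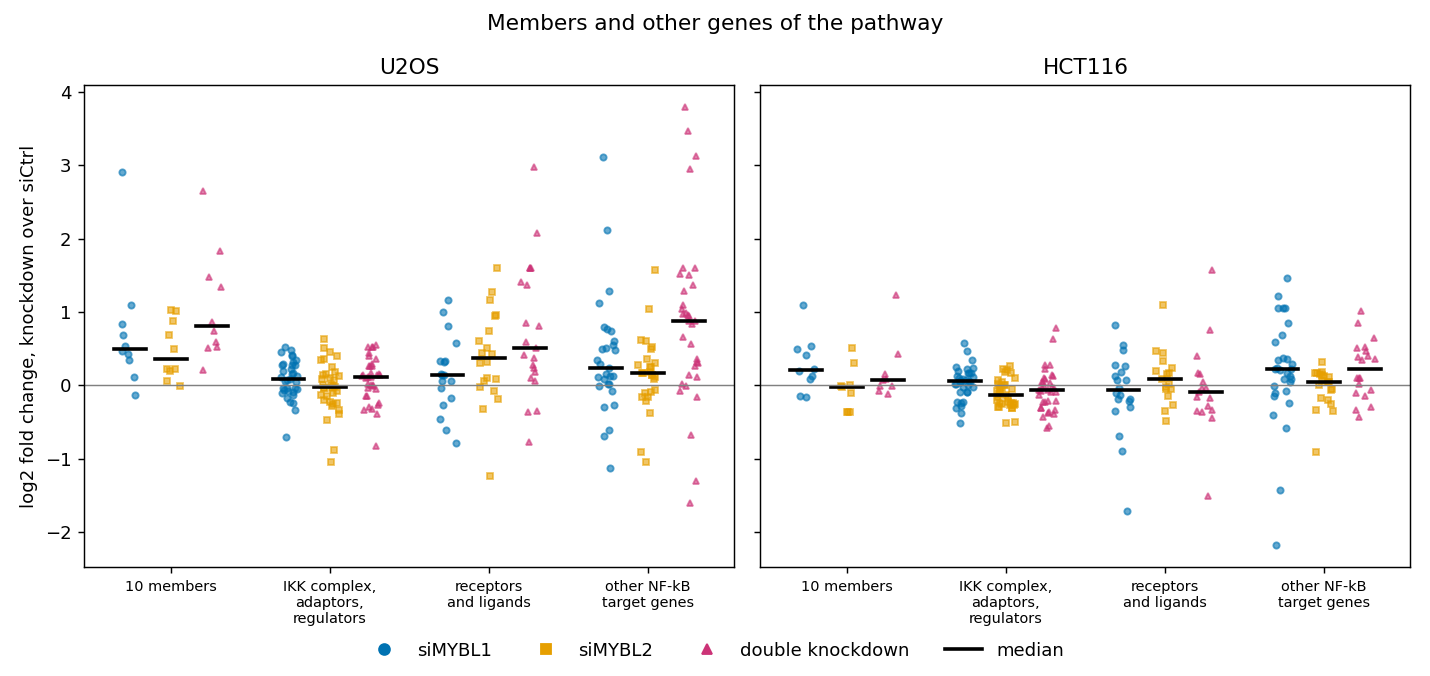
Log2 fold change over siCtrl (vertical axis) of the 10 members and of 3 lists of other pathway genes, 1 mark per listed gene, coloured by knockdown, with black bars at the medians; U2OS left, HCT116 right. In the U2OS double knockdown the medians are 0.81 for the members, 0.12 for the IKK complex, adaptors and regulators, 0.51 for receptors and ligands and 0.88 for other targets.

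The genes whose changes were most like those of TRAF1 were sought over the 4 tables that list it, among 11412 genes whose base mean reached 50 in each. Likeness was the root mean squared difference between log2 fold changes. GDF15, a stress-induced cytokine, was nearest at 0.34, with changes of 2.85, 1.22 and 3.08 in U2OS and 0.21 in HCT116 in the authors' deposited table. SERPINB5, a serpin, followed at 0.55 and PKIB, an inhibitor of protein kinase A, at 0.69. SEMA7A, TRIB3 and MXD1 were the next, at 0.78, 0.81 and 0.82. None of the other 9 members was among these 6 genes.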

How the data were processed

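Per the labels, RNA was taken with a Zymo column kit and libraries were made by a commercial provider. The submitters' processing notes name cutadapt 4.4, Salmon 1.10.1, DESeq2 1.40 and the build hg38, without settings; the sources used here give neither strandedness nor filters. The data are 6 deposited tables of the authors' own comparisons, 1 per knockdown and line. Per the file headers, the deposited signal is a base mean, which averages the normalized counts of 4 libraries. The log2 fold change (knockdown over siCtrl) and its standard error are the authors' values. The deposited Wald statistic is a score that equals their ratio. The deposited p-value matched its 2-sided normal test, and the authors' adjusted p-value matched Benjamini-Hochberg adjustment over each table. Depth per library is unknown; the members' standard errors, 0.147 to 0.846, set the precision.

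Group levels were derived as 2 × base mean / (1 + fold) for siCtrl, and that times the fold for the knockdown, which assumes groups of equal weight. Differences between tables used the summed squared standard errors, a normal p and adjustment over all shared genes, in Python 3.11.15 with scipy 1.17.1. The alternatives were thresholds of 0.01 and 0.1, adjustment over genes whose base mean reached 100 or that are in all tables, centring, a minimum log2 fold change of 0.58 or (added after seeing the data) 0.5, and variances reduced for the shared controls, which takes controls and knockdown to contribute equally to each standard error. With 2 libraries a group, p-values measure only the spread between these samples.

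Members and lists were chosen with earlier results of these data known. Named besides the members were up to 4 called genes per list and comparison with the smallest adjusted p and a base mean of at least 50, with RELA, IKBKB, CHUK and IKBKG, and the 6 genes nearest to TRAF1. That last search was planned over 6 tables and ran over the 4 that list TRAF1. MYD88 and SAA1, the 1 lower gene of their lists in the U2OS double knockdown, were added after their values were seen. So were IL1A, CSF2, BCL2A1, CCL20, the U2OS value of IRAK2, and the values of KRT8 and KRT18. The value of CXCL8 after siMYBL1 in U2OS was added in the same way. TRAF2 stands in 2 lists.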

Additional observations from a re-analysis of the deposited data

Results flagged for a closer look

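The response of NFKBIE to the double knockdown differed between the lines by a test of the difference itself: 1.49 on the log2 scale, U2OS minus HCT116 (SE 0.33, adjusted p = 0.00256), from 1.48 in U2OS and -0.01 in HCT116. It was the 1 member flagged in this way. In that knockdown MYBL1 RNA stood at 0.435 of its siCtrl level in U2OS and 0.278 in HCT116, and MYBL2 RNA at 0.0434 and 0.0992. The part of these levels in the NFKBIE difference was not tested. With no values per library, single libraries that stand apart could not be looked for.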

How the results depend on the processing

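Against siCtrl, 1 alternative moved a count of members called by over 1.5 times: at a threshold of 0.01 the U2OS double knockdown had 5 calls, without RELB, NFKB2 and IER3. TNFAIP3 after siMYBL2 in U2OS also missed that threshold, and NFKB2 in the U2OS double knockdown was not called against a minimum log2 fold change of 0.58. For the U2OS double knockdown minus siMYBL1, the count of 0 became 1 at a threshold of 0.1 or over genes whose base mean reached 100, and 2 with the reduced variance. For the U2OS double knockdown minus siMYBL2, it became 1 at a threshold of 0.1 and 4 with the reduced variance. For U2OS siMYBL1 minus siMYBL2, the count of 1 became 0 over genes whose base mean reached 100, because TRAF1, with 67.4 after siMYBL2, was left out. For the double-knockdown response of U2OS minus HCT116, the count became 2 at a threshold of 0.1. Centring turned 6 values near 0, none of them called: in HCT116 after siMYBL2, RELB to 0.029, REL to 0.014 and IER3 to 0.027; in the HCT116 double knockdown, NFKBIE to 0.017 and NFKB1 to 0.024; and NFKB2 in the HCT116 double knockdown minus siMYBL1 to 0.032. No paired analysis was possible because the tables hold no values per library; for the same reason no replicate was left out in turn. Within HCT116, low counts limit TRAF1 and TNFAIP3 most.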
